A study of Mus musculus with 10 samples.

Results

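The guanylate-binding proteins are a family of large GTPases that interferons switch on. Here the family is taken as the 10 mouse genes Gbp2 to Gbp11, found in the gene count table by matching each Ensembl identifier to its symbol, so 10 of 55536 identifiers are described. All 10 passed the filter on low counts, as did 20301 identifiers in all. The 11th annotated gene of the family, Gbp2b, is given beside them. The family was chosen by measured values: earlier results of these same libraries, in which its members had few counts in Il-17rb-Cre, were known when it was selected. Every comparison of its members with Il-17rb-Cre is therefore a description of levels and carries no test.

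The libraries come from translating ribosome affinity purification (TRAP), in which a GFP-tagged ribosomal protein, EGFP-L10a, is made in cells that express Cre recombinase and its ribosomes are pulled down with anti-GFP beads together with the messenger RNAs they carry. The Flex virus AAV5-EF1α-Flex-EGFPL10a was injected into the S1DZ, a zone of the primary somatosensory cortex, at 400 nl per side, and the tissue was taken after 4 weeks. Il-17rb-Cre mice gave 3 libraries, Il-17ra-Cre mice 3 and Il-17rc-Cre mice 4. Each line is named after a subunit of the receptors for interleukin-17 cytokines (Il-17rb, Il-17ra or Il-17rc), and all 3 groups carry the same virus. The labels give no age, sex or cell type and do not say which libraries come from separate animals, so each p-value reflects only how far these libraries spread, part of which may be technical.

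Guanylate-binding proteins bind GTP, assemble into polymers on membranes and gather on vacuoles that hold bacteria or parasites, where they help to break the membrane and expose the contents to inflammasomes. Interferon gamma is their strongest known inducer, through the receptor chains Ifngr1 and Ifngr2, the kinases Jak1 and Jak2, and transcription factors that include Irf1. Their known DNA motifs are the gamma-activated site and the interferon-stimulated response element, and Irf1 binds the second of these. In the brain, astrocytes, microglia and endothelial cells are known to make these GTPases when interferon is present, and neurons are known to respond more weakly.

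Total counts per library lay between 39692925 (Il-17ra-Cre replicate 2) and 165844244 (Il-17ra-Cre replicate 3). Levels are given as CPM, counts scaled to each library's total after TMM, edgeR's trimmed mean of M-values. Il17rc was at 1.03 to 3.19 CPM in Il-17rb-Cre, at 21.35 to 41.2 CPM in Il-17ra-Cre and at 20.3 to 39.9 CPM in Il-17rc-Cre. The libraries did not follow their names in these receptors: Il17rb was at 0.614 to 0.872 CPM in Il-17rb-Cre against 1.27 to 3.75 CPM in Il-17ra-Cre, and Il17ra at 16.7 to 21.4 CPM in Il-17ra-Cre against 15.6 to 21.7 CPM in Il-17rc-Cre. Group names below are therefore those of the labels. Within groups, Il-17rc-Cre replicates 1 and 3 stood apart from replicates 2 and 4, and Il-17ra-Cre replicate 3 stood apart from replicates 1 and 2. Fold changes of the members are also given without these libraries, and so are the counts of list genes that they move most.

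The family lies in 2 clusters on mouse build GRCm38. On chromosome 3, plus strand, Gbp5, Gbp7, Gbp3, Gbp2b and Gbp2 occupy chr3:142493978-142638008. On chromosome 5, minus strand, Gbp8, Gbp9, Gbp4, Gbp10, Gbp6 and Gbp11 occupy chr5:105014150-105346472. GENCODE M21 annotates Gbp11 as a polymorphic pseudogene and the other members as protein-coding. RefSeq promoter windows for build GRCm38.p6 were matched for 4 members, all on chromosome 3. The 250 bases before each start are printed for these 4, since no window was matched for the members on chromosome 5. Capitals mark matches to the core of the interferon-stimulated response element, searched as 2 copies of TTTC with any 2 bases between them, or to the gamma-activated site, TTCNNNGAA, both on either strand.
Gbp2, chr3:142620413-142620662, plus strand: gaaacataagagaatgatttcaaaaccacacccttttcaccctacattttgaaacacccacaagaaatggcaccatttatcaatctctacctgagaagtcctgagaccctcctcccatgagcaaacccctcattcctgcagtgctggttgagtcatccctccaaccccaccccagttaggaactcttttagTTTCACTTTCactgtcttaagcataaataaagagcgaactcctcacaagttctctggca
Gbp3, chr3:142559794-142560043, plus strand: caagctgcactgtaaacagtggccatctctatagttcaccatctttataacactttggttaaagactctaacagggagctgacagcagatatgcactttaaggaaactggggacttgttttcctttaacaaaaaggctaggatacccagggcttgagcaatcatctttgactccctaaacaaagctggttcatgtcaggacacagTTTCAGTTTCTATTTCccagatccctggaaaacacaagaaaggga
Gbp5, chr3:142496684-142496933, plus strand: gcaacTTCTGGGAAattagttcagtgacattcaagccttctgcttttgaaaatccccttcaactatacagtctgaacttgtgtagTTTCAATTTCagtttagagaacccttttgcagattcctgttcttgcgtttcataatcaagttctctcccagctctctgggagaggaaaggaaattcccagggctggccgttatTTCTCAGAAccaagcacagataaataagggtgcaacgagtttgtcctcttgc
Gbp7, chr3:142530086-142530335, plus strand: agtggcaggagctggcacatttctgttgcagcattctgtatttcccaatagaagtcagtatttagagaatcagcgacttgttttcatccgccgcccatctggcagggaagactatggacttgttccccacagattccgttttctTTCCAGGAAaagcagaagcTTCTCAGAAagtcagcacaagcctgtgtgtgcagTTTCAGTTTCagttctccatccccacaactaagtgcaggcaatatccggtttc
The response element core stood in each of these windows, at 59 to 50 bases before the start in Gbp2, 165 to 156 in Gbp5 and 53 to 44 in Gbp7. In Gbp3 a pair of overlapping matches ran from 45 to 30 bases before the start. A further RefSeq start of Gbp3 downstream of this one had no match to either motif in its window, and the window of Gbp2b had 1 match to the core. The gamma-activated site matched at 2 places in Gbp5 and at 2 places in Gbp7, and at none in the printed windows of Gbp2 and Gbp3. Of 32817 RefSeq windows of the same length, 2.97% held the response element core and 7.01% the gamma-activated site. A match of letters is a description and does not show binding.

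How far reads can be assigned to single members differed along the family. Gbp6 and Gbp10 have coding sequences of 1833 bases each that differ at 30 positions, an identity of 98.4%, and run without a difference for up to 421 bases. The 60 coding bases in which they differ most are printed, coding positions 1567 to 1626 of the GENCODE M21 transcripts (chromosome 5, minus strand), with capitals at the 9 bases that differ.
Gbp6: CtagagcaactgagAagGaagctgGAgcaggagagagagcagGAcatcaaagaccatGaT
Gbp10: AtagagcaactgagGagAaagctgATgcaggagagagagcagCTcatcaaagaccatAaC
Of the 50-base words in Gbp10 transcripts 84.1% also occur in another gene, and of those in Gbp6 70.7%, against 1.44% to 19.2% for the other 8 members. Another protein-coding gene model, Gm43302, overlaps 46.3% of the exonic bases of Gbp10 and 29.0% of those of Gbp6, and Gm43802 overlaps 11.3% of Gbp7. These 2 gene models were looked at after values were seen: Gm43302 had 1 read over all 10 libraries and Gm43802 had 0. How shared reads were counted is not given in the sources used here, so the values of Gbp6 and Gbp10 are uncertain as single genes. Their sum was 3.43, 1.53 and 4.47 CPM in Il-17rb-Cre libraries, 649, 488 and 233 CPM in Il-17ra-Cre libraries and 59.7, 382, 93.9 and 386 CPM in Il-17rc-Cre libraries, so every Il-17rb-Cre library lay below all others for the sum of the pair too. Gbp5 is the least like the others, with coding identities of 52.5% to 61.4%, and Gbp3 and Gbp7 are each other's nearest relatives at 77.3%.

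**Figure D1:**
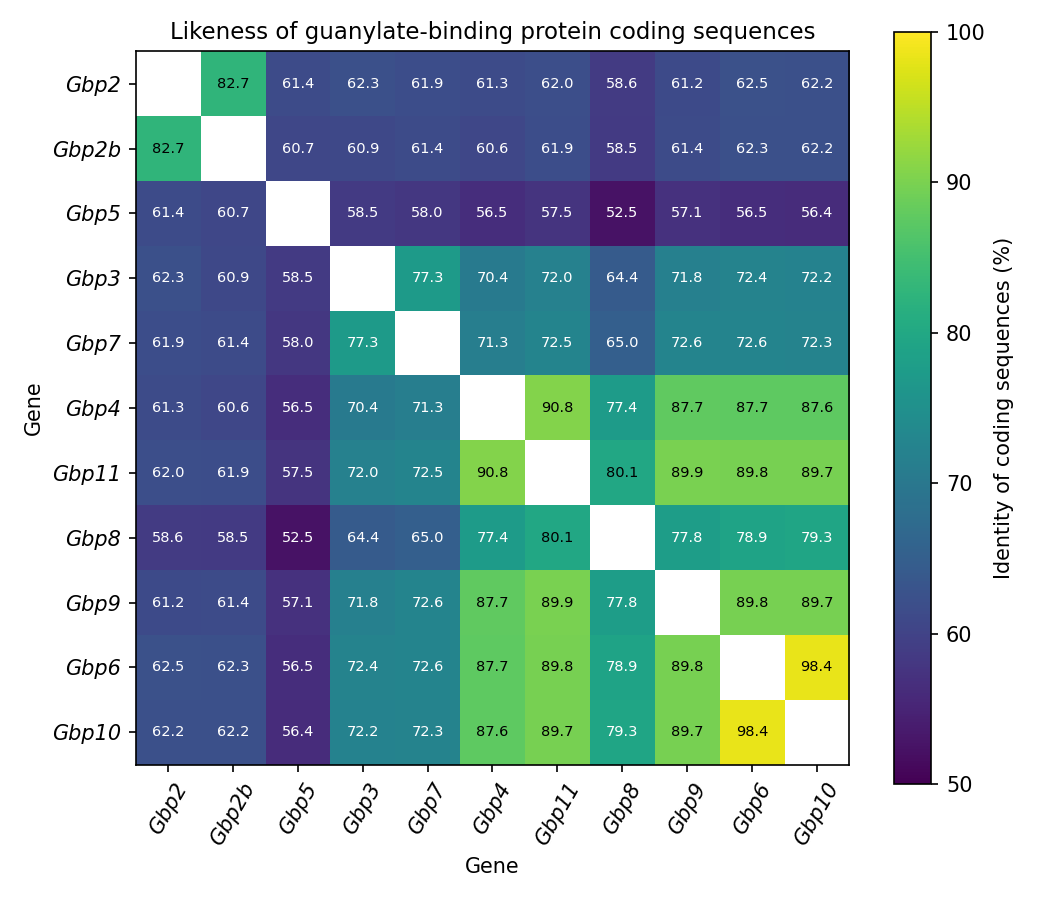
Identity of the longest coding sequences of the 11 annotated guanylate-binding protein genes, as the percent of bases not edited between each pair; both axes list genes and colour gives the percent. Gbp6 and Gbp10 stand at 98.4%, the other chromosome 5 genes except Gbp8 at 87.6% to 90.8%, and Gbp5 at 61.4% or less with every other gene.

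The members on chromosome 3 included the highest values of the family. Gbp2, which restricts Toxoplasma in mice, was at 6.89, 4.11 and 10.9 CPM in the Il-17rb-Cre libraries, at 3337, 2748 and 1909.6 CPM in the Il-17ra-Cre libraries and at 292, 3076, 588 and 2823 CPM in the Il-17rc-Cre libraries. Each Il-17rb-Cre library was far below each of the other 7, and Il-17rc-Cre replicates 1 and 3 lay below all Il-17ra-Cre libraries. In bulk RNA such as this, fewer cells of a type and less RNA per cell cannot be told apart. Gbp3 was at 23.0, 18.1 and 28.8 CPM in Il-17rb-Cre, at 746, 617 and 356 CPM in Il-17ra-Cre and at 296, 563, 364 and 565 CPM in Il-17rc-Cre. It was the most abundant member in Il-17rb-Cre and the steadiest in Il-17rc-Cre. Gbp7, which takes part in the assembly of the phagocyte NADPH oxidase, was at 18.3, 13.03 and 21.6 CPM in Il-17rb-Cre, at 596, 485 and 252 CPM in Il-17ra-Cre and at 109, 280.5, 155 and 355 CPM in Il-17rc-Cre. Its groups did not overlap between Il-17rb-Cre and either other line. Gbp5, which promotes assembly of the NLRP3 inflammasome, was at 4.13, 1.98 and 2.97 CPM in Il-17rb-Cre, at 442, 415 and 173 CPM in Il-17ra-Cre and at 133, 389, 230.1 and 515 CPM in Il-17rc-Cre. The highest Gbp5 value of all 10 libraries stood in Il-17rc-Cre replicate 4, not in an Il-17ra-Cre library. Gbp2b had 0 reads in all Il-17rb-Cre libraries, 0, 64 and 273 reads in Il-17ra-Cre and 0, 3, 0 and 0 reads in Il-17rc-Cre, and did not pass the filter.

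Per kilobase, the Il-17rb-Cre mean of every member on chromosome 5 was below that of every member on chromosome 3, although Gbp6 and Gbp5, at the border, did not differ beyond their spread. Here and below, lengths were not corrected for sequence shared with other genes. Of 50-base words 84.1% are shared in Gbp10, 70.7% in Gbp6 and 1.44% to 19.2% in the other members. Per-kilobase values of Gbp10 and Gbp6 are therefore uncertain. Exons of Gbp4, Gbp8 and Gbp9 overlap by 60 or 61 bases on the same strand. Gbp4 was at 4.05, 1.82 and 2.33 CPM in Il-17rb-Cre, at 927, 719 and 573 CPM in Il-17ra-Cre and at 71.4, 738, 185 and 931 CPM in Il-17rc-Cre. Gbp8 was at 0.863, 0.440 and 0.715 CPM in Il-17rb-Cre, at 673, 609 and 191 CPM in Il-17ra-Cre and at 15.7, 309, 45.9 and 325 CPM in Il-17rc-Cre. The lowest Gbp8 value outside Il-17rb-Cre, in Il-17rc-Cre replicate 1, was still above every Il-17rb-Cre value. Gbp9 was at 1.03, 1.79 and 2.29 CPM in Il-17rb-Cre, at 212, 163 and 48.7 CPM in Il-17ra-Cre and at 32.5, 86.6, 48.1 and 110.1 CPM in Il-17rc-Cre. Gbp6 ranged from 1.36 to 3.33 CPM in Il-17rb-Cre, 99.9 to 209.9 CPM in Il-17ra-Cre and 42.5 to 184 CPM in Il-17rc-Cre, and Gbp10 from 0.174 to 1.56, 133 to 439 and 17.2 to 236 CPM in the same groups. For each of these genes Il-17ra-Cre replicate 3 was the lowest of its group and lay below Il-17rc-Cre replicates 2 and 4 and above Il-17rc-Cre replicates 1 and 3. Gbp11 had 12 reads in Il-17rb-Cre, all in replicate 2 (0.160 CPM), and was at 79.4, 73.1 and 40.9 CPM in Il-17ra-Cre and at 5.31, 33.9, 12.998 and 50.6 CPM in Il-17rc-Cre. Any fold change of Gbp11 against Il-17rb-Cre therefore rests on the 12 reads of 1 library.

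**Figure D2:**
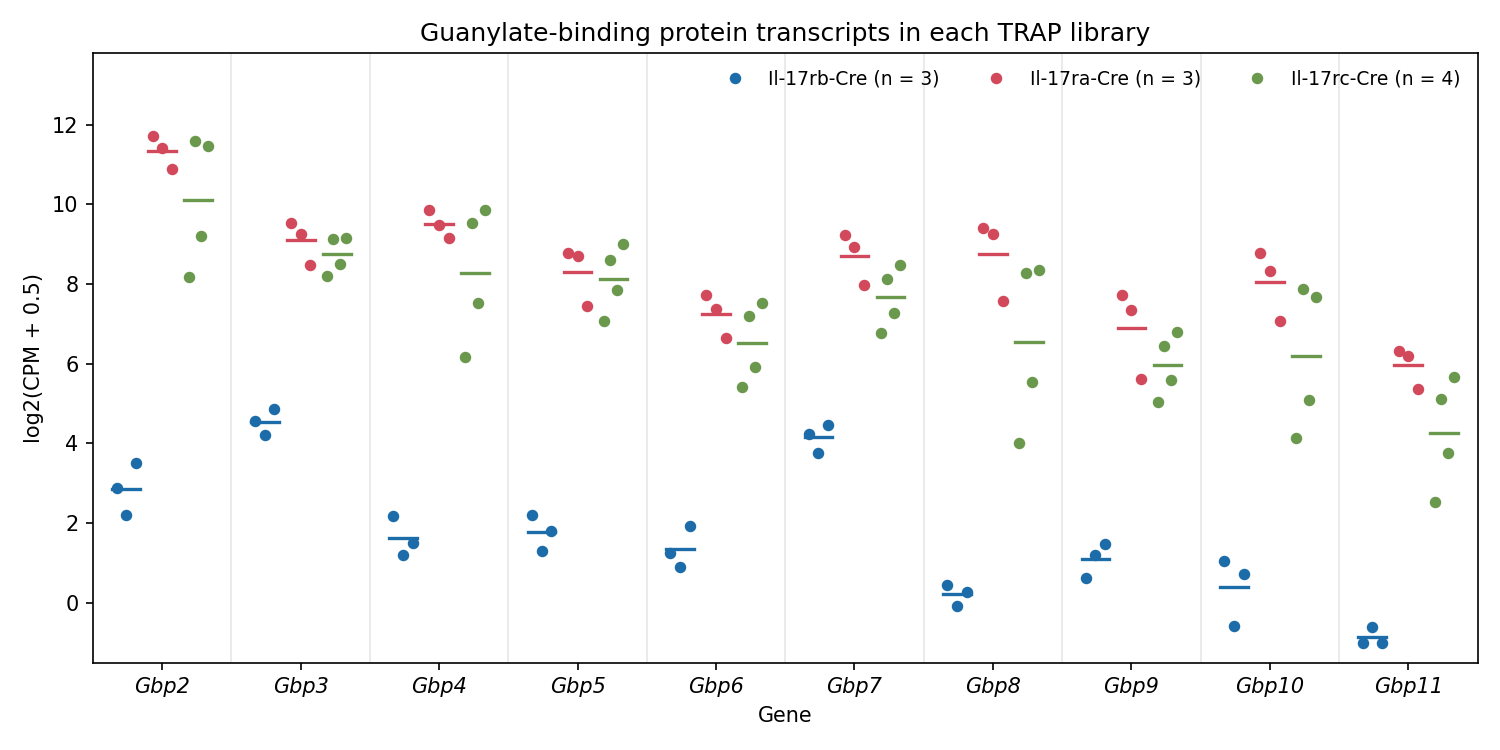
Level of each member in each library, as log2(CPM + 0.5) on the vertical axis, with genes along the horizontal axis. Points are libraries (3 Il-17rb-Cre, 3 Il-17ra-Cre and 4 Il-17rc-Cre) and short bars are group means on that scale. All Il-17rb-Cre points lie below all points of the other groups for every gene, and the Il-17rc-Cre points split into a lower pair (replicates 1 and 3) and an upper pair (replicates 2 and 4).

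Per kilobase of exon the order of the members was not the same in the 3 groups. In Il-17rb-Cre, Gbp3 led at 7.14 ± 1.64 CPM per kb (SD, n = 3), followed by Gbp7 at 3.14 ± 0.770 and Gbp2 at 2.90 ± 1.36 CPM per kb, a pair that did not differ beyond its spread. The next 6 members, Gbp5, Gbp6, Gbp4, Gbp9, Gbp10 and Gbp8 in that order, lay between 0.195 and 0.456 CPM per kb, no neighbours among them differing beyond their spread, and Gbp11 was last at 0.0198 CPM per kb. In Il-17ra-Cre, Gbp2 led at 1059 ± 285 CPM per kb (SD, n = 3), ahead of Gbp3 at 175 ± 60.8 and Gbp8 at 143 ± 75.98 CPM per kb, which did not differ beyond their spread. Gbp4, Gbp7, Gbp10 and Gbp5 followed at 98.7 to 51.7 CPM per kb, and Gbp9, Gbp6 and Gbp11 closed the order at 27.3, 26.7 and 23.96 CPM per kb. In Il-17rc-Cre, Gbp2 was at 674 ± 579 CPM per kb (SD, n = 4), with a spread larger than its distance to Gbp3 at 137 ± 42.3 CPM per kb, although Gbp2 was above Gbp3 in each of the 4 libraries. Only Gbp3 differed from its next neighbour, Gbp4 at 64.2 ± 55.7 CPM per kb, by more than their spread in that group. Gbp2, the leader in both other groups, stood behind Gbp3 in Il-17rb-Cre. Without Il-17ra-Cre replicate 3, Gbp2 led that group at 1209 CPM per kb, with Gbp3 at 209 and Gbp8 at 186 CPM per kb behind it. Without Il-17rc-Cre replicates 1 and 3, Gbp2 led at 1172 CPM per kb, ahead of Gbp3 at 173 and Gbp4 at 111 CPM per kb.

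The make-up of the family's reads also differed between the groups. These shares are of counts, not divided by gene length. Gbp3 and Gbp7 together gave 66.9%, 72.5% and 68.0% of the family's counts in Il-17rb-Cre, against 17.5%, 17.4% and 16.1% in Il-17ra-Cre. The Il-17rc-Cre libraries gave 39.9%, 14.4%, 30.1% and 15.2%, the 2 with the lowest family CPM (replicates 1 and 3) standing between Il-17rb-Cre and Il-17ra-Cre. Gbp2 ran the other way, at 11.2%, 9.57% and 14.7% in Il-17rb-Cre, at 43.6%, 43.5% and 50.6% in Il-17ra-Cre and at 28.7%, 52.5%, 34.1% and 46.6% in Il-17rc-Cre. Gbp8 made up 0.965% to 1.40% of the family's counts in Il-17rb-Cre, 5.06% to 9.64% in Il-17ra-Cre and 1.55% to 5.36% in Il-17rc-Cre. The make-up was counted from 3217 to 5182 reads per Il-17rb-Cre library and from 49304 or more reads in each other library.

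**Figure D3:**
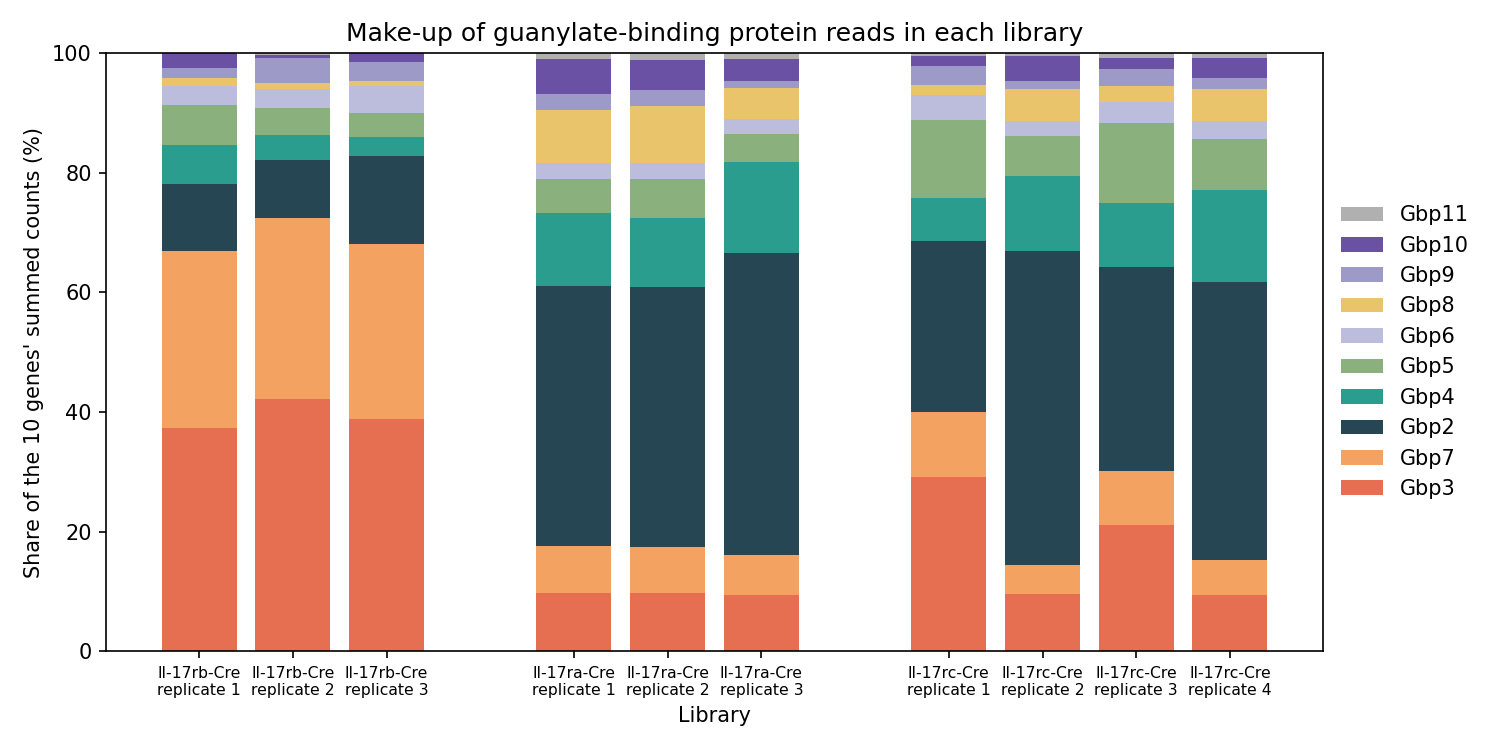
Share of the 10 genes' summed counts taken by each gene, in percent, stacked to 100 for each library along the horizontal axis. Gbp3 and Gbp7 (the lowest 2 layers) take 66.9% to 72.5% in Il-17rb-Cre, 16.1% to 17.5% in Il-17ra-Cre, and 39.9% and 30.1% in Il-17rc-Cre replicates 1 and 3 against 14.4% and 15.2% in replicates 2 and 4.

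As fold changes, all 10 members were lower in Il-17rb-Cre than in Il-17ra-Cre, by log2 fold changes from -10.05 to -4.62 with a median of -7.46, beside a median of -0.09 over all 20301 genes tested. The end at -10.05 is Gbp11, and without Il-17rb-Cre replicate 2, which leaves no read of it in that group, its fitted values were -15.14 against Il-17ra-Cre and -13.85 against Il-17rc-Cre, which depend on the prior count and are no bound. Gbp3, at -4.62 ± 0.38 (SE), and Gbp7, at -4.66 ± 0.52, had the smallest differences, which are 24.6-fold and 25.2-fold. Gbp2 stood at -8.51 ± 1.05, Gbp4 at -8.08 ± 1.03 and Gbp8 at -9.52 ± 1.35. The count of members past an adjusted p of 0.05 in edgeR's quasi-likelihood test was 10 of 10, beside 24.4% of all genes tested in that direction, and since the members were chosen for this contrast nothing is read from it. The groups did not overlap for 10 of 10 members, beside 29.2% of all genes lower without overlap (25.5% against Il-17rc-Cre). Against Il-17rc-Cre the log2 fold changes ran from -8.73 to -3.67 with a median of -6.87, beside 0.02 over all genes, and 10 of 10 passed, beside 21.9% of all genes, from which nothing is read either. Gbp7 was the least different at -3.67 ± 0.48 and Gbp3 followed at -4.26 ± 0.37. The 2 contrasts share the Il-17rb-Cre libraries. Against Il-17ra-Cre the log2 fold changes ran from -9.38 to -3.82 without its replicates 1 and 2 (Gbp8 -8.15, Gbp9 -4.81) and from -10.28 to -4.87 without its replicate 3. Against Il-17rc-Cre they ran from -9.49 to -4.22 without its replicates 1 and 3.

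No member differed between Il-17ra-Cre and Il-17rc-Cre in edgeR's quasi-likelihood test, in which 2.18% of all genes passed, and DESeq2 also called 0 of 10. Gbp7 was the sole member with an unadjusted p under 0.05, with a difference of 0.98 ± 0.41 on the log2 scale (edgeR adjusted p = 0.237). All 10 fold changes were above 0, from 0.12 ± 0.47 for Gbp5 (edgeR adjusted p = 0.936) to 1.498 ± 0.86 for Gbp8 (edgeR adjusted p = 0.404), with a median of 0.82 beside 0.03 over all genes. A p that misses the threshold does not show equal levels: the standard errors ran from 0.31 to 0.88. The direction rested on a few libraries for some: without Il-17rc-Cre replicates 1 and 3 the fold change of Gbp2 was -0.18 and that of Gbp5 -0.44, and without Il-17ra-Cre replicates 1 and 2 that of Gbp5 was -0.94, while Gbp8, Gbp10, Gbp7 and Gbp11 stayed above 0 in both. The 2 groups overlapped for all 10 members, where 7.92% of all genes were higher in Il-17ra-Cre without overlap and 6.65% lower.

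**Figure D4:**
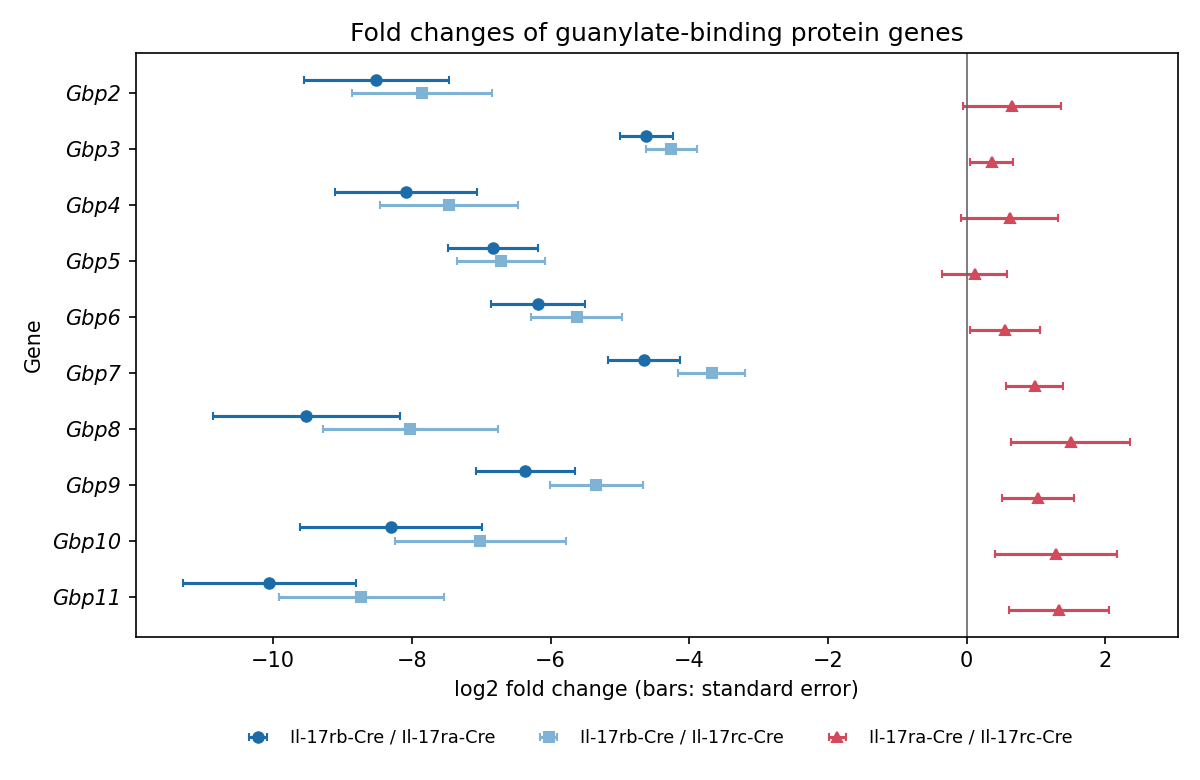
Log2 fold changes of the 10 members (horizontal axis, error bars are standard errors derived from edgeR's F statistic) for Il-17rb-Cre over Il-17ra-Cre, Il-17rb-Cre over Il-17rc-Cre and Il-17ra-Cre over Il-17rc-Cre. The first 2 contrasts run from -10.05 to -3.67, with Gbp3 and Gbp7 nearest to 0, and the last from 0.12 to 1.498.

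Within Il-17rc-Cre and within Il-17ra-Cre the members moved together. In Il-17rb-Cre they had no common order: Gbp4 was at 4.05, 1.82 and 2.33 CPM, and Gbp9 at 1.03, 1.79 and 2.29 CPM. Summed over the family, Il-17rb-Cre libraries had 61.7, 42.9 and 74.1 CPM, Il-17ra-Cre libraries 7661, 6315 and 3778 CPM and Il-17rc-Cre libraries 1015, 5858, 1724 and 6061 CPM. For 10 of 10 members the lowest Il-17rc-Cre library was replicate 1 and replicate 3 was next, and for 10 of 10 the lowest Il-17ra-Cre library was replicate 3 and the highest replicate 1. The share of all genes with these orders was not counted. Of oligodendrocyte markers, 8 of 8 were also lower in Il-17rc-Cre replicates 1 and 3 than in replicates 2 and 4. Il-17ra-Cre replicate 3 also had the lowest astrocyte and oligodendrocyte marker sums of its group. Shifts of the family and of whole libraries were not told apart. The size of the split within Il-17rc-Cre differed between members. The highest over the lowest Il-17rc-Cre value was 1.91 for Gbp3, 3.25 for Gbp7, 3.38 for Gbp9, 3.86 for Gbp5 and 4.32 for Gbp6, against 9.52 for Gbp11, 10.5 for Gbp2, 13.03 for Gbp4, 13.76 for Gbp10 and 20.7 for Gbp8. The members that varied most within Il-17rc-Cre tended to have the larger difference between Il-17rb-Cre and Il-17ra-Cre. With both measures on the log2 scale, Spearman's rho was 0.806 and Pearson's r 0.889 across the 10 genes, which are not independent replicates. The 2 measures have no library in common. The difference uses the Il-17rb-Cre levels by which the family was chosen, so these values are a description. That of Gbp11 rests on 12 reads of 1 library, and Gbp6 and Gbp10 can share reads. Pearson's r was 0.888 without Il-17ra-Cre replicate 3 and 0.874 without Il-17ra-Cre replicates 1 and 2, and the spread within Il-17rc-Cre is itself mostly the distance between its 2 pairs of libraries. Each member's log2 level had a Pearson's r of 0.982 to 0.997 with the sum of the other members over 10 libraries. Over the 7 Il-17ra-Cre and Il-17rc-Cre libraries alone r was 0.853 to 0.991, lowest for Gbp5 and highest for Gbp10. These values describe libraries that share their groups.

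Immunity-related GTPases are the partners of the family on parasite vacuoles: Irgm1, Irgm2 and Igtp regulate the others, and Iigp1, Tgtp1 and Tgtp2 load onto the vacuole. All 13 on the list were lower in Il-17rb-Cre than in Il-17ra-Cre (median log2 fold change -6.78) and all 13 were lower than in Il-17rc-Cre (-5.73). Igtp was at 53.5, 43.4 and 49.5 CPM in Il-17rb-Cre, at 2651, 1774 and 1569.7 CPM in Il-17ra-Cre and at 229, 1838, 532 and 1975 CPM in Il-17rc-Cre. Irgm1 was at 73.1, 61.3 and 82.8 CPM in Il-17rb-Cre, at 2291, 1768 and 1436 CPM in Il-17ra-Cre and at 605, 1344, 965 and 1625 CPM in Il-17rc-Cre. Iigp1 had log2 fold changes of -6.44 ± 0.78 against Il-17ra-Cre (edgeR adjusted p = 0.000184) and -5.73 ± 0.74 against Il-17rc-Cre (edgeR adjusted p = 0.000244). Irgm1 and Igtp showed the same lower pair of Il-17rc-Cre libraries, replicates 1 and 3, as the guanylate-binding proteins. These and the following lists were chosen with results of these libraries known, and counts are of genes past an adjusted p of 0.05 over all genes, where 24.4% of all genes were lower in Il-17rb-Cre than in Il-17ra-Cre and 21.9% lower than in Il-17rc-Cre.

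Along the route from interferon gamma to Irf1, 5 of 8 genes were lower in Il-17rb-Cre than in Il-17ra-Cre and 4 of 8 lower than in Il-17rc-Cre (medians -2.97 and -2.20), none higher. The receptor's chains are given side by side, and whether they differ from each other was not tested. Ifngr1, the ligand-binding chain, was at 6.98, 5.14 and 5.16 CPM in Il-17rb-Cre, at 36.7, 38.5 and 15.0 CPM in Il-17ra-Cre and at 14.5, 32.2, 23.4 and 26.4 CPM in Il-17rc-Cre (log2 fold changes -2.38 ± 0.39 and -2.07 ± 0.38, edgeR adjusted p = 0.00107 and 0.00178). Ifngr2, the signalling chain, was at 61.8, 84.9 and 73.6 CPM in Il-17rb-Cre, at 29.9, 67.8 and 51.5 CPM in Il-17ra-Cre and at 54.9, 69.8, 65.0 and 49.8 CPM in Il-17rc-Cre, with no called difference (log2 fold changes 0.56 ± 0.27 and 0.29 ± 0.25, edgeR adjusted p = 0.126 and 0.385). Jak1 had log2 fold changes of -0.29 ± 0.19 and -0.15 ± 0.18 and was not called either. Irf1 was at 13.83, 9.93 and 15.4 CPM in Il-17rb-Cre, at 1269.7, 1121 and 631 CPM in Il-17ra-Cre and at 132, 768, 277 and 719 CPM in Il-17rc-Cre. Irf1 had log2 fold changes of -6.27 ± 0.71 and -5.18 ± 0.66 (edgeR adjusted p = 0.000123 and 0.000224). The transcript of interferon gamma itself, Ifng, was scarce in all groups, with 5, 0 and 0 reads in Il-17rb-Cre, 8, 47 and 143 in Il-17ra-Cre and 0, 49, 0 and 0 in Il-17rc-Cre.

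Interferon gamma induced effectors, which include the immunoproteasome, peptide transporters and chemokines, were lower in Il-17rb-Cre for 12 of 12 genes against either line (medians -5.19 and -4.18). Psmb8, an immunoproteasome subunit, was at 25.5, 12.8 and 18.8 CPM in Il-17rb-Cre, at 1114, 755 and 614 CPM in Il-17ra-Cre and at 181, 509.5, 233 and 582 CPM in Il-17rc-Cre. Its Il-17rc-Cre libraries split into the same pairs as the members did. Cxcl10, a chemokine that type I interferons also induce, was at 5.54, 5.18 and 7.18 CPM in Il-17rb-Cre, at 230.4, 244 and 485 CPM in Il-17ra-Cre and at 345, 678, 607 and 855 CPM in Il-17rc-Cre, with replicates 1 and 3 again lowest but nearer to the others. It was lowest in Il-17ra-Cre replicate 1, the library where the 10 members were highest in that group. Psmb10, another immunoproteasome subunit, had the smaller log2 fold changes of -2.34 ± 0.30 and -1.38 ± 0.27.

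For type I interferon, 7 of 8 genes of the receptor and its transcription factors were lower in Il-17rb-Cre against either line (medians -2.41 and -1.82), but 4 of 8 against Il-17ra-Cre without its replicates 1 and 2. Ifnar1 had log2 fold changes of -1.01 ± 0.31 and -1.004 ± 0.29 (edgeR adjusted p = 0.0246 and 0.0203), and Ifnar2, the other chain of that receptor, -2.54 ± 0.32 and -2.12 ± 0.31. Of 12 type I interferon induced effectors 10 were lower than in Il-17ra-Cre and 12 lower than in Il-17rc-Cre (medians -3.19 and -3.15). Ifit3, an antiviral protein with tetratricopeptide repeats, was at 95.1, 56.0 and 95.2 CPM in Il-17rb-Cre, at 3122, 2050.4 and 1396 CPM in Il-17ra-Cre and at 1447, 1598, 1807 and 3113 CPM in Il-17rc-Cre. Oasl2, a relative of the oligoadenylate synthetases, was at 92.8, 71.2 and 129 CPM in Il-17rb-Cre, at 1176, 906 and 608 CPM in Il-17ra-Cre and at 830.0, 739, 854 and 1082 CPM in Il-17rc-Cre. Mx1 and Mx2 were the 2 not called against Il-17ra-Cre. Ifit2, a relative of Ifit3, was at 45.0, 37.0 and 67.1 CPM in Il-17rb-Cre, at 2619, 1658 and 418 CPM in Il-17ra-Cre and at 256, 854, 373 and 1322 CPM in Il-17rc-Cre, with the lower pair of Il-17rc-Cre libraries that the guanylate-binding proteins showed. Summed over this list, Il-17rc-Cre libraries had 4665, 5776, 5799.9 and 9827 CPM. Replicates 1 and 3 were both below replicates 2 and 4 for 3 of the 12 (Ifit2, Isg15 and Bst2, named after their values were seen), and for 12 of the 12 interferon gamma effectors. Whether the 2 kinds of effector differ in this was not tested, since the libraries were parted by the members' own values. The share of all genes with that order was not counted. The order was not particular to interferon gamma effectors. It held for 8 of 8 oligodendrocyte markers, 11 of 12 microglia and macrophage markers and 6 of 8 inflammasome genes, but for 1 of 10 astrocyte markers.

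**Figure D5:**
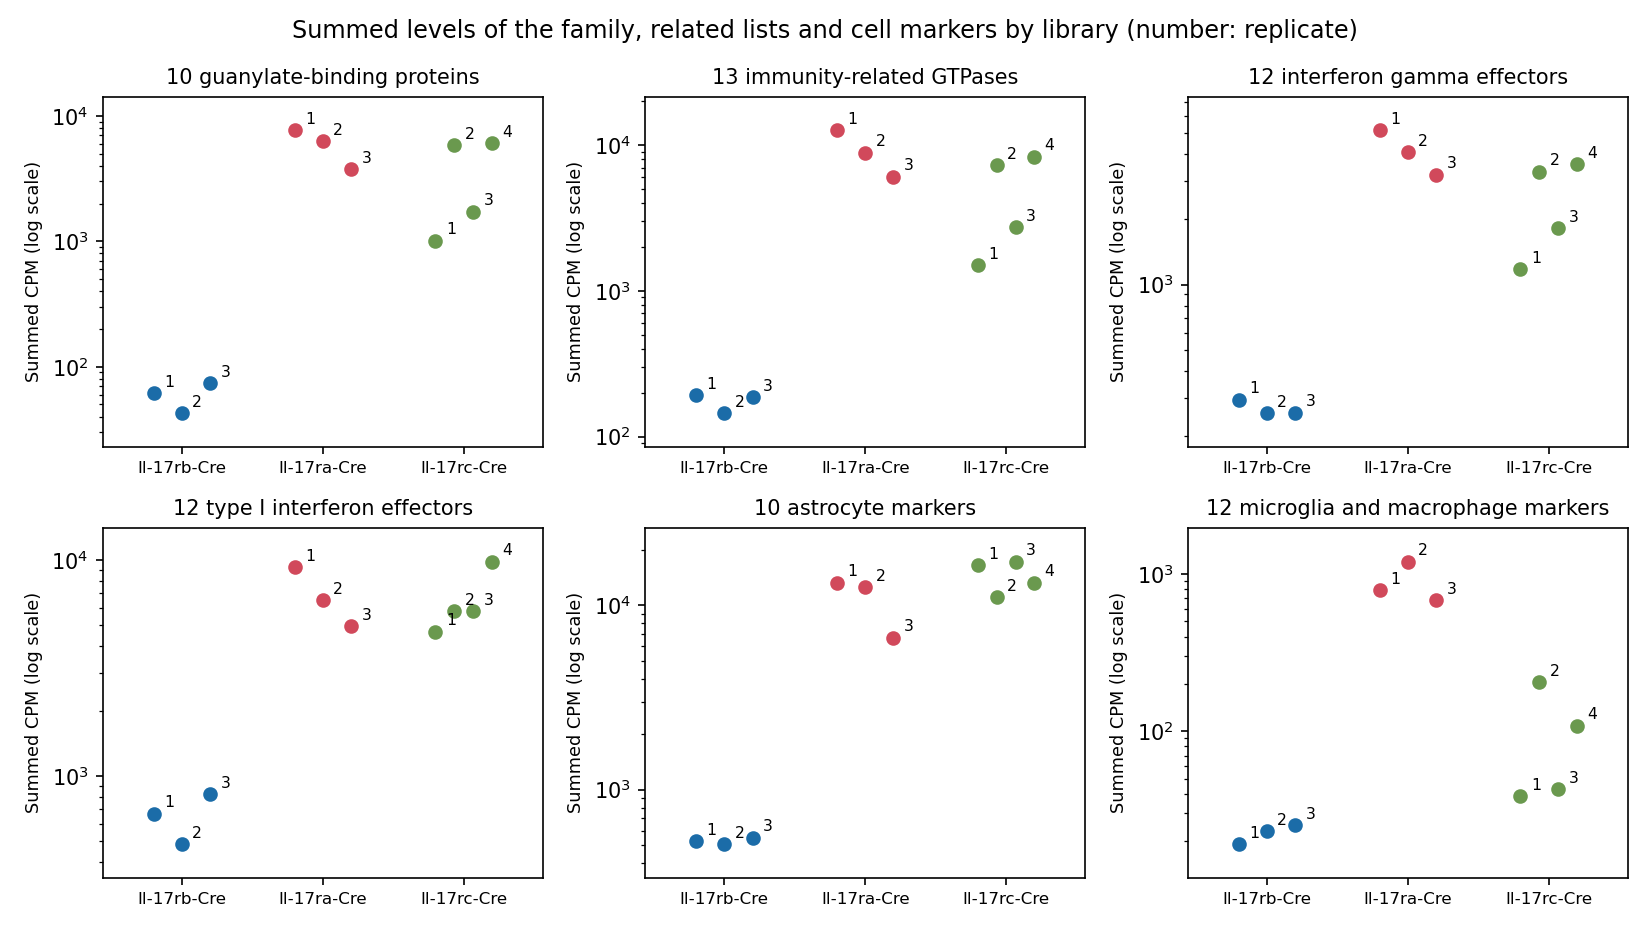
Summed CPM (log scale, vertical axis) of the family, 3 related lists and 2 cell marker lists in each library, by group along the horizontal axis; each point is a library and the number beside it its replicate. The family, the immunity-related GTPases and the interferon gamma effectors put Il-17rc-Cre replicates 1 and 3 below replicates 2 and 4. Astrocyte markers are higher in that lower pair (16531 and 17222 CPM) than in the other (11099 and 13256 CPM), and microglia and macrophage markers lower (38.7 and 42.8 CPM, against 205 and 109 CPM).

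Inflammasome and pyroptosis genes act after guanylate-binding proteins have opened a vacuole. Of 8 tested, 7 were lower in Il-17rb-Cre than in Il-17ra-Cre and 6 lower than in Il-17rc-Cre (medians -4.77 and -4.13), and Nlrp3 had 0 reads in all Il-17rb-Cre libraries and no test. Casp4, the mouse sensor of cytosolic lipopolysaccharide, was at 0.375, 0.240 and 0.357 CPM in Il-17rb-Cre, at 8.33, 15.4 and 13.2 CPM in Il-17ra-Cre and at 6.21, 30.8, 6.94 and 23.0 CPM in Il-17rc-Cre (log2 fold changes -5.24 ± 0.70 and -5.69 ± 0.70). Aim2, a sensor of cytosolic DNA, had -4.29 ± 1.01 on the log2 scale against Il-17ra-Cre (edgeR adjusted p = 0.00706) and -1.90 ± 0.89 against Il-17rc-Cre (edgeR adjusted p = 0.117). Il18, a cytokine that caspase-1 matures, was at 8.56, 5.17 and 5.35 CPM in Il-17rb-Cre, at 88.4, 66.1 and 54.4 CPM in Il-17ra-Cre and at 107, 83.5, 109 and 72.8 CPM in Il-17rc-Cre.

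Lists of genes that serve or resemble these GTPases gave a mixed picture. Of 6 prenylation enzymes, which attach the lipid that anchors some members to membranes, 3 were lower in Il-17rb-Cre than in Il-17ra-Cre and 2 lower than in Il-17rc-Cre, none higher (medians -0.29 and -0.00032), beside 24.4% and 21.9% of all genes lower. Fnta, the subunit that farnesyl and geranylgeranyl transferases share, had log2 fold changes of -0.60 ± 0.18 and -0.21 ± 0.16 (edgeR adjusted p = 0.0204 and 0.329). Of 10 genes of the LC3 and Gate-16 conjugation system, which places immunity-related GTPases and guanylate-binding proteins on vacuoles, 3 were higher and 2 lower in Il-17rb-Cre than in Il-17ra-Cre, and 5 were higher and 1 lower than in Il-17rc-Cre, where 16.4% and 17.7% of all genes were higher. The count of LC3 list genes called against Il-17ra-Cre, in either direction, was 4 to 8 over the alternatives: 8 with DESeq2, with upper-quartile scaling and without Il-17ra-Cre replicate 3, and 4 without Il-17ra-Cre replicates 1 and 2. Gabarapl1 was at 1462, 1433 and 1374 CPM in Il-17rb-Cre, at 417, 388 and 840.3 CPM in Il-17ra-Cre and at 581, 476, 611 and 503 CPM in Il-17rc-Cre. Atlastins are relatives of the family in the dynamin superfamily that fuse the endoplasmic reticulum. Atl1, the neuronal atlastin, was higher in Il-17rb-Cre (1.49 ± 0.25 and 1.29 ± 0.23, edgeR adjusted p = 0.00115 and 0.00151) and Atl3 lower (-2.13 ± 0.34 and -0.98 ± 0.31, edgeR adjusted p = 0.0009005 and 0.0317). Against Il-17rc-Cre, 1 of 3 atlastins was called without Il-17rb-Cre replicate 1, Il-17rb-Cre replicate 2 or Il-17rc-Cre replicate 1. Without Il-17ra-Cre replicates 1 and 2, 1 prenylation enzyme was called against Il-17ra-Cre. Between Il-17ra-Cre and Il-17rc-Cre, edgeR called 0 of the 78 genes tested on these lists. Of them 22 had an unadjusted p under 0.05, for which no share over all genes was taken. DESeq2 called 2101 of the 20301 genes there. They held 2 of 13 immunity-related GTPases, 3 of 12 interferon gamma effectors and 1 of 12 type I effectors. Also among them were 2 of 8 inflammasome genes and 2 of 3 atlastins. Without Il-17ra-Cre replicate 3, edgeR called 2886 genes in all. Of the lists it called 1 immunity-related GTPase, 1 gene of the interferon gamma route, 2 of the type I receptor list and 3 interferon gamma effectors. In the same fit it called 1 type I effector, 1 LC3 gene and 2 atlastins. It also called 1 interferon gamma effector and 1 type I effector without Il-17rc-Cre replicate 2, and 1 type I effector with DESeq2 size factors or another filter on low counts. Nothing is read from these list counts.

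Markers of several cell types also differed between the groups. Counts called lower stand beside the 24.4% and 21.9% of all genes given above. The 10 astrocyte markers were all lower in Il-17rb-Cre and summed to 507 to 550.3 CPM there, 6676 to 13260.3 CPM in Il-17ra-Cre and 11099 to 17222 CPM in Il-17rc-Cre. The 12 microglia and macrophage markers summed to 19.2 to 25.3 CPM in Il-17rb-Cre, with Itgam, Ptprc and Mrc1 at 0 in each library, and were lower than in Il-17ra-Cre for 12 of 12 and than in Il-17rc-Cre for 9 of 12. Their sums were 686 to 1199 CPM in Il-17ra-Cre and 38.7 to 205 CPM in Il-17rc-Cre. Summed endothelial markers (10 genes) were at 26.2 to 35.8 CPM in Il-17rb-Cre, 70.8 to 399 CPM in Il-17ra-Cre and 84.2 to 279 CPM in Il-17rc-Cre, with 2 of 10 called lower than in Il-17ra-Cre, under the share over all genes, and 6 of 10 lower than in Il-17rc-Cre. The 8 mural cell markers, 7 called lower than in Il-17ra-Cre and 8 lower than in Il-17rc-Cre, summed to 4.32 to 8.78 CPM in Il-17rb-Cre, 119 to 201 CPM in Il-17ra-Cre and 488 to 1053 CPM in Il-17rc-Cre. The 8 oligodendrocyte markers were at 995 to 1124 CPM in Il-17rb-Cre, 5171 to 43404 CPM in Il-17ra-Cre and 1022 to 3860.2 CPM in Il-17rc-Cre. They were called lower than in Il-17ra-Cre for 8 of 8, but than in Il-17rc-Cre for 1 of 8 (Cnp), with a median log2 fold change of -1.01. The 6 oligodendrocyte precursor markers, 6 of 6 lower against either line, summed to 39.0 to 59.7 CPM in Il-17rb-Cre, 613 to 1493 CPM in Il-17ra-Cre and 607 to 727 CPM in Il-17rc-Cre. The 8 excitatory neuron markers ran the other way, 8 of 8 higher against either line, at 17568 to 20638 CPM in Il-17rb-Cre, 1560.4 to 6593 CPM in Il-17ra-Cre and 2143 to 3554 CPM in Il-17rc-Cre. Of 8 pan-neuronal markers 6 were higher against either line, beside 16.4% and 17.7% of all genes, and Map2 was called in neither contrast. Tubb3 was lower than in Il-17ra-Cre and not called against Il-17rc-Cre. Pan-neuronal sums were 14849 to 15243 CPM in Il-17rb-Cre, 4719 to 5487 CPM in Il-17ra-Cre and 3410 to 3919 CPM in Il-17rc-Cre. Inhibitory neuron markers (8 genes) summed to 953 to 1029 CPM in Il-17rb-Cre, 186 to 321 CPM in Il-17ra-Cre and 475 to 587 CPM in Il-17rc-Cre. Of these, 4 were called higher than in Il-17ra-Cre and 4 not called, and against Il-17rc-Cre 2 were higher (Sst and Lhx6), 1 lower (Gad2) and 5 not called. Rpl10a, the gene of the tagged ribosomal protein, was at 602 to 669.6 CPM in Il-17rb-Cre, at 58.7, 70.9 and 679 CPM in Il-17ra-Cre and at 191 to 267 CPM in Il-17rc-Cre. Summed T and NK cell markers were at 2.32 to 6.31 CPM in Il-17rb-Cre, 20.3 to 54.0 CPM in Il-17ra-Cre and 14.1 to 30.0 CPM in Il-17rc-Cre, with Cd3e and Cd8a at 0 in Il-17rb-Cre, and 6 and 4 of 8 were called lower against Il-17ra-Cre and Il-17rc-Cre. Between Il-17ra-Cre and Il-17rc-Cre, edgeR called 7 of 8 oligodendrocyte and 5 of 12 microglia and macrophage markers higher in Il-17ra-Cre (medians 3.78 and 2.29). Tubb3 was called higher too, and Fgfr3, Rgs5, Vtn and Gad2 lower, beside 2.18% of all genes in either direction. None of the endothelial, oligodendrocyte precursor, excitatory neuron or T and NK cell markers was called there. The part these cell types have in the members' levels was not tested. Within Il-17rc-Cre, in replicates 1 and 3, where the family was lower, the astrocyte sum was higher than in replicates 2 and 4, though Gfap was lower. The microglia and macrophage sum was lower (38.7 and 42.8 CPM, against 205 and 109 CPM) and so was the oligodendrocyte sum (1211 and 1022 CPM, against 3860.2 and 2386 CPM). Endothelial (97.4 and 84.2 CPM, against 279 and 100.2 CPM) and precursor sums (607 and 684 CPM, against 690 and 727 CPM) were lower too. The excitatory neuron sum was higher (3263 and 3554 CPM, against 2143 and 2258 CPM). Mural, inhibitory, pan-neuronal and T and NK cell sums did not part these pairs. Within Il-17ra-Cre, replicate 3, where the family was lowest, had the lowest astrocyte sum (6676 CPM, against 13260 and 12484 CPM). Oligodendrocyte, precursor, endothelial, microglia and macrophage, and T and NK cell sums were lowest there too (5171, 613, 70.8, 686 and 20.3 CPM). Its mural, excitatory and pan-neuronal sums were the highest of the group (201, 6593 and 5487 CPM), and its inhibitory sum (271 CPM) lay between the others.

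The genes most like the family across all 10 libraries, by Pearson's r of log2(CPM + 0.5) with the family's sum over 10138 candidates, were Tgtp1 (0.999), Iigp1 (0.998), Irf1 (0.997), Batf2 (0.997), Tgtp2 (0.996), Irgm1 (0.995), Ube2l6 (0.995) and Irgm2 (0.995). The 95th percentile of r over the candidates was 0.949 and the median -0.02. Over the 7 Il-17ra-Cre and Il-17rc-Cre libraries alone the same 8 genes had r from 0.954 (Irgm1) to 0.997 (Tgtp2). These genes were picked by r over all 10 libraries, which include those 7. No percentile over the candidates is given for the 7, so these values are a description. Tgtp1, at 1.26, 1.08 and 1.93 CPM in Il-17rb-Cre, 757, 516 and 376 CPM in Il-17ra-Cre and 54.9, 508, 141 and 579.5 CPM in Il-17rc-Cre, was lowest in the same libraries of these 2 lines as the members were, Il-17ra-Cre replicate 3 and Il-17rc-Cre replicate 1. Tgtp1 and Tgtp2 are near-identical copies, so their separate values are uncertain. Batf2, a transcription factor of the AP-1 family, was at 1.00 to 1.97 CPM in Il-17rb-Cre, 86.0 to 162 CPM in Il-17ra-Cre and 18.9 to 116 CPM in Il-17rc-Cre.

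The genes that flank the 2 clusters were set beside them, taken by position as the nearest 2 tested protein-coding genes on each side. Of these 8, 5 were lower in Il-17rb-Cre than in Il-17ra-Cre and 4 lower, with 1 higher, than in Il-17rc-Cre, where 24.4% and 21.9% of all genes were lower. Pdlim5, 98.3 kb before the chromosome 3 cluster, was at 2.14 ± 1.61 CPM in Il-17rb-Cre, 76.9 ± 13.3 CPM in Il-17ra-Cre and 93.9 ± 23.2 CPM in Il-17rc-Cre (SD, n = 3, 3 and 4). Kyat3, 63.0 kb after it, had log2 fold changes of -3.13 ± 0.30 and -2.84 ± 0.29. Beside the chromosome 5 cluster, Zfp951 (0.14 ± 0.44 and -0.01 ± 0.41) was not called in either contrast and Lrrc8b was higher in Il-17rb-Cre than in Il-17rc-Cre (0.95 ± 0.28, edgeR adjusted p = 0.0225). The members' own differences, at -3.67 or further below 0 in both contrasts, exceeded those of every flanking gene but Pdlim5, which had -5.18 ± 0.54 and -5.47 ± 0.53. The members were chosen with their low Il-17rb-Cre levels known and the flanking genes by position, so nothing is read from this comparison.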

How the data were processed

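Gene counts were deposited by the authors as raw read counts per Ensembl identifier, from reads aligned with STAR 2.7.5c to GRCm38 per the submitters' processing notes. Which program counted the reads, with what strand setting and annotation release, is not given in the sources used here, so overlapping genes and near-identical copies can share reads. Libraries were made with the SMART-Seq v4 kit, per the labels' protocols. Of 55536 identifiers, 55450 matched a symbol.

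Counts of all 10 libraries were fitted in 1 model by group with edgeR 4.0.16 (R 4.3.3; TMM scaling, filterByExpr, quasi-likelihood F test), which tested 20301 identifiers and removed 35235. P-values were adjusted by Benjamini-Hochberg over all of them at 0.05, and fold changes are given with standard errors. Each standard error was derived as the size of the log2 fold change divided by the square root of the F statistic. The biological coefficient of variation was 0.489. The fit was tested on simulated data. Correlations used log2(CPM + 0.5). Coding sequences and exons came from GENCODE M21 and promoters from RefSeq.

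The members and all gene lists were chosen with earlier results of these data known. Named beside the 10 members were Gbp2b, up to 3 genes per list with the highest mean CPM, a few receptors, transcription factors and sensors, and the 8 genes most like the family with a mean log2 CPM of at least 3. Flanking genes were taken by position. Alternatives were DESeq2 1.42.0, other scalings and filters, fits of only the groups compared, a replicate block and libraries left out. Values of 1 listed gene are not reported here.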

Additional observations from a re-analysis of the deposited data

Results flagged for a closer look

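In the 4 Il-17rc-Cre libraries, 4 genes of the lists had 1 library far from the other 3, measured as the gap to the nearest library divided by the whole range. For Ifng this was 1.0, since replicate 2 alone had reads. Stat2 reached 0.858 and Ifit1 0.856, both for a high replicate 4, and Atg7, an enzyme of LC3 conjugation, reached 0.931 for a high replicate 2. Values above 0.829 were listed among 96 genes and sums examined, and chance alone lists about 1 in 20 groups.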

How the results depend on the processing

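No member was called between Il-17ra-Cre and Il-17rc-Cre under any alternative run; counts of members called against Il-17rb-Cre follow from how the members were chosen and are not read. The number of genes called between Il-17ra-Cre and Il-17rc-Cre was not stable. It was 443 (281 higher and 162 lower), 2101 with DESeq2 (978 higher and 1123 lower), 691 with a filter at 1 CPM and 1 with only the 2 groups fitted. With DESeq2 size factors in edgeR it was 216 higher and 226 lower. It was 0 without Il-17rc-Cre replicates 1 and 3, 0 without Il-17ra-Cre replicates 1 and 2, and 0 to 2886 with 1 library left out: 0 without Il-17ra-Cre replicate 1, Il-17ra-Cre replicate 2 or Il-17rc-Cre replicate 3, 4 without Il-17rc-Cre replicate 1, 37, 15 and 43 without Il-17rb-Cre replicates 1, 2 and 3, 37 without Il-17rc-Cre replicate 4 and 2886 without Il-17ra-Cre replicate 3. Between Il-17rb-Cre and Il-17ra-Cre, 8268 genes were called, and 4192 without Il-17ra-Cre replicates 1 and 2, where the lone library is assumed to vary like the other groups. The labels state no pairing of libraries by the numbers in their titles or library names. Same-numbered libraries had correlations of their deviations from -0.083 to 0.181. By title and by library name, 5 and 3 of 10 libraries correlated best with their own number. With 9 such pairs this cannot exclude a pairing by number. A replicate block by these numbers called 2 and 1 genes between Il-17ra-Cre and Il-17rc-Cre. For that comparison, members fell below 0 on the log2 scale without Il-17rc-Cre replicates 1 and 3 (Gbp2 -0.18, Gbp3 -0.016, Gbp4 -0.21, Gbp5 -0.44, Gbp6 -0.0904) and without Il-17ra-Cre replicates 1 and 2 (Gbp3 -0.40, Gbp5 -0.94, Gbp6 -0.18, Gbp9 -0.58). Gbp5 had -0.017 with the block by library numbers, and -0.17 to 0.45 with 1 library left out. The cause was not tested. Upper-quartile scaling moved the median of all genes to 0.04 (Il-17rb-Cre over Il-17ra-Cre) and 0.13 (Il-17rb-Cre over Il-17rc-Cre), against -0.09 and 0.02.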
